A study of Mus musculus with 16 samples.

Results

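The genes described here are the secreted Wnt ligands, their receptors, their secreted inhibitors and enhancers, and the main intracellular effectors of the pathway, in fetal mouse brain. They were chosen by symbol: every numbered Wnt, Fzd, Sfrp, Dkk and Rspo gene, together with Lrp5, Lrp6, Ctnnb1, Apc, Axin1, Axin2, Tcf7l1 and Tcf7l2. The rule found 41 of the 16250 gene symbols that the tables list in at least 1 library. These are 14 ligands, 10 Frizzled receptors, the 2 co-receptors Lrp5 and Lrp6, 4 Sfrp and 2 Dkk antagonists, 3 R-spondins and 6 intracellular effectors. RNA was sequenced from whole pieces of cortex and hippocampus of wild-type (WT) mouse fetuses at embryonic day 18.5, whose mothers lived in an enriched environment (EE) or under standard habitation (SH). The series title calls the exposure prenatal, and neither the strain nor the sex, litter or mother of a fetus is named in the labels. There were 5 EE and 5 SH libraries of cortex and 3 EE and 3 SH libraries of hippocampus. Cortex replicates 4 and 5 came as a separate set of files that list fewer genes. No label ties a library to a fetus or litter, so the p-values below describe how far these libraries vary and may not describe how far animals do.

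Wnt proteins are secreted, lipid-bearing signals that bind Frizzled receptors together with the co-receptors Lrp5 or Lrp6. This stops a complex built on the Axin and Apc proteins from destroying beta-catenin, the product of Ctnnb1, which then enters the nucleus and acts through transcription factors of the Tcf and Lef family. Sfrp proteins bind Wnt ligands outside the cell, most Dkk proteins act on the co-receptors, and R-spondins raise the response by keeping Frizzled receptors at the surface. In the fetal forebrain the cortical hem, a strip at the medial edge of the cortex, releases several Wnt ligands next to the forming hippocampus, and hippocampal growth depends on them.

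The values are FPKM, which divides the fragments of a gene by its transcript length and by the depth of the library, so that levels can be set side by side between genes. From the steps of these values the reads of nearly all genes could be recovered, up to a common factor. The recovered genes hold 90.63% to 94.17% of the summed FPKM of a library, so their summed reads are not full library totals. These sums were lowest in cortex replicates 4 and 5, with 11785321 to 12533421 reads per library. Cortex replicates 1 to 3 had 15536810 to 21008623 and the hippocampal libraries 16474852 to 21437128 reads. By the sum of its FPKM values, 511438, cortex SH replicate 3 stood apart from all other libraries (339726 to 396658). The tissue labels were checked against marker genes in replicates 1 to 3 with the test used for the members. Of 10 hippocampal markers 8 were higher in hippocampus, among them Zbtb20, by 2.13 on the log2 scale, and Prox1 and Emx2, both by 1.87, and 1 was lower (Mef2c). Of 10 neocortical markers 5 were lower in hippocampus and 2 were higher (Fezf2 and Bhlhe22). All 7 Cajal-Retzius cell markers and 9 of 10 radial glia markers were higher in hippocampus, while all 10 striatal markers and 8 of 12 meningeal markers were higher in cortex. Choroid plexus markers, of which 11 of 12 were listed in hippocampus and none at 0, summed to 5207, 10740 and 17300 FPKM in hippocampal EE replicates 1 and 2 and SH replicate 1. The sum was 51.2 to 169 FPKM in the other 3 hippocampal libraries and 27.9 to 718 FPKM in cortex, where 7 to 12 of the markers were listed. In whole tissue, fewer cells of a type and less RNA per cell cannot be told apart.

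The promoters of 3 members with large differences between the tissues, and of the pathway's common readout gene Axin2, are shown as the sequence around the starts of these genes. Each line gives the 250 bases before the start of a gene in RefSeq on the build GRCm38.p6, 5′ to 3′ on the gene's strand. The windows lie at chr19:44493222-44493471 for Wnt8b (plus strand), chr3:104961710-104961959 for Wnt2b (minus strand), chr4:124986180-124986429 for Rspo1 (plus strand) and chr11:108920099-108920348 for Axin2 (plus strand). The RefSeq start of Wnt2b lies inside the span that GENCODE gives the gene, so most of its window overlaps the annotated gene, while the other windows end where the annotated gene begins. Capitals mark the 5-base core of the Tcf and Lef recognition motif, CTTTG or its reverse complement CAAAG.
Wnt8b: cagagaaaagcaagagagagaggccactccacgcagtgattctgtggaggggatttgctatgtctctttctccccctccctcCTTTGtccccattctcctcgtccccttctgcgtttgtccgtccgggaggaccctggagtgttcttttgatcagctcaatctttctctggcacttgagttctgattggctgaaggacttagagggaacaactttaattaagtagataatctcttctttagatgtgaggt
Wnt2b: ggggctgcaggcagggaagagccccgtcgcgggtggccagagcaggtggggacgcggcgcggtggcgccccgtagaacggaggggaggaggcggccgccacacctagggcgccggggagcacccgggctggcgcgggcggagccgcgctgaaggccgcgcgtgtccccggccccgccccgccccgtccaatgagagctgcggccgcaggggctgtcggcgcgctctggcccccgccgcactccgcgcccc
Rspo1: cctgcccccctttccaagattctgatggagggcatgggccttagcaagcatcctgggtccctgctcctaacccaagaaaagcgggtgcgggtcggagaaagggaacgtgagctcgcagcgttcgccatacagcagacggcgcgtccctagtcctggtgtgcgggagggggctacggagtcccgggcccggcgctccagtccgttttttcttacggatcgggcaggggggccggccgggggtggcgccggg
Axin2: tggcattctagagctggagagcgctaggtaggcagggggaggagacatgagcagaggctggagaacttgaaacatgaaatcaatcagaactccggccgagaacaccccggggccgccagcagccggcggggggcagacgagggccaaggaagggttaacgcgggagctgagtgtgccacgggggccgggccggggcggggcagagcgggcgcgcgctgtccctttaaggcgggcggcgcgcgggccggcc

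The core was found once in the Wnt8b window and in none of the other windows printed. A 7-base form of the motif was searched on both strands as CTTTGAA and as CTTTGAT, and also as CTTTGTA and as CTTTGTT, each of which contains the core, and none of these windows holds it. Among 31 windows that RefSeq gives for 26 members, 12 hold the core and 4 the 7-base form, or 38.7% and 12.9%. Over all 32851 windows of the same length the shares were 48.6% and 14.8%. The windows differ widely in base composition, with 48.4% G and C for Wnt8b, 66.8% for Rspo1, 69.2% for Axin2 and 80.8% for Wnt2b. A match is only a run of letters, and its absence says only that these letters are not in this window.

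Of the 41 members, 32 were listed in all 16 libraries. Cortex replicates 1 to 3 listed 40, the hippocampal libraries 39 and cortex replicates 4 and 5 only 32. The symbols Wnt1, Wnt8a, Wnt9b, Wnt10a, Wnt10b, Dkk1, Dkk4 and Rspo4, which the rule also covers, were in none of the tables. Wnt6 and Wnt16 were listed in cortex replicates 1 to 3 and not in hippocampus, at 0.802 to 3.45 and 0.155 to 0.372 FPKM. Wnt3a, a ligand of the cortical hem on which the hippocampus depends, was listed in hippocampus and in no cortex library. Its levels ran from 1.35 to 2.31 FPKM with a median of 1.78 over the 6 hippocampal libraries. No level was assumed for a gene in a library that does not list it. No fold change was therefore computed for these 3 genes, which were singled out after their values were seen. Wnt3a lies on chromosome 11 of mm10 from 59248033 to 59290752, next to Wnt9a at 59306928 to 59333552.

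The member with the highest level was the same in cortex and hippocampus for the ligands, the secreted antagonists, the R-spondins and the effectors, and differed for the receptors. Among the ligands Wnt7b, which can activate beta-catenin signalling, had the highest level. Its level was 26.5 ± 1.98 FPKM in cortex and 23.9 ± 7.36 FPKM in hippocampus (SD, n = 6 each, replicates 1 to 3). The lowest ligand was Wnt8b in cortex, with a mean of 0.127 FPKM, and Wnt2 in hippocampus, with 0.246 FPKM. Among the receptors Fzd3, a Frizzled known for its part in axon guidance, led in cortex with 8.87 ± 2.75 FPKM, and Fzd1 led in hippocampus with 16.5 ± 2.46 FPKM (SD, n = 6 each). Dkk3, a divergent member of the Dkk family, was placed among the secreted antagonists by its symbol. It had the highest level of that group in both tissues, followed by Sfrp1. Rspo2 was the highest R-spondin in both, with 3.34 ± 0.469 FPKM in cortex and 10.4 ± 1.57 FPKM in hippocampus (SD, n = 6 each). Ctnnb1, which encodes beta-catenin and is also a part of cell junctions, was far above all other members, with 282 ± 48.3 FPKM in cortex and 329 ± 14.4 FPKM in hippocampus (SD, n = 6 each).

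**Figure D1:**
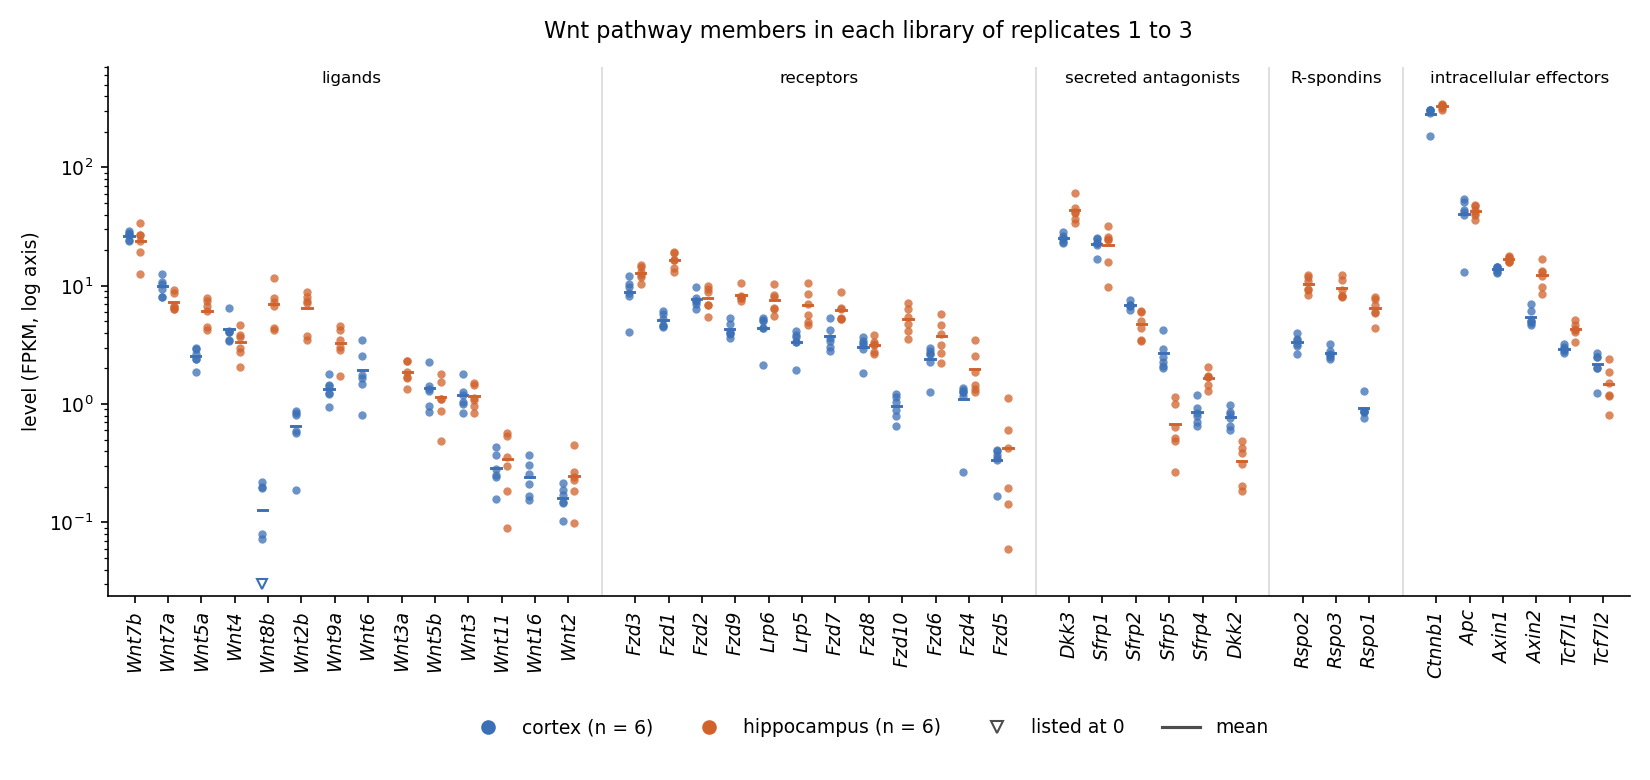
Level in FPKM (log axis) of each of the 41 members in each library of replicates 1 to 3, cortex in blue and hippocampus in orange, with bars at the means and a triangle for the 1 library listed at 0; members are grouped by role and ordered by mean level. The R-spondins, Wnt8b and Wnt2b sit higher in hippocampus, where Wnt8b runs from 4.25 to 11.7 FPKM against 0 to 0.218 FPKM in cortex, while Wnt7b and Fzd2 overlap between the tissues.

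The first comparison asked how the pathway differed between hippocampus and cortex at this age. In hippocampus, 4 ligands, 7 receptors or co-receptors, all 3 R-spondins, 3 effectors and 2 secreted antagonists were higher, and 1 ligand and 2 antagonists were lower. The largest differences were those of Wnt8b, Wnt2b and Rspo1 among the higher members and of Sfrp5 among the lower ones. Of 38 members listed in all 12 libraries of replicates 1 to 3, 34 had a mean of at least 1 FPKM and were tested, and Wnt2, Wnt11, Fzd5 and Dkk2 were below it. With limma and an adjusted p of 0.05 or less, 19 members were higher and 3 lower in hippocampus, while of all 13158 genes tested 24.6% were higher, 10.9% lower and 35.4% either. The median log2 difference was 0.51 over the members tested and 0.09 over all genes. The groups did not overlap for 17 higher and 2 lower members, against 14.9% and 5.5% of all genes. Wnt8b, Wnt2b, Rspo1, Fzd10 and Sfrp4 had a cortical mean below 1 FPKM and Sfrp5 a hippocampal one, so these 6 entered the test only through the tissue where they were high. Of the 28 members with a mean of at least 1 FPKM in both tissues, 14 were higher and 2 lower, against 23.1% and 10.5% of the 12557 genes that met the same condition. Fold changes are on the log2(FPKM + 1) scale, which understates the change of low genes.

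Wnt8b, a ligand of the cortical hem and the medial wall, showed the largest difference of the members tested. Its cortical levels were at most 0.218 FPKM, with a median of 0.138 FPKM and 0 to 14 recovered reads per library, and 1 cortex library was listed at 0. In hippocampus its lowest, median and highest levels were 4.25, 7.06 and 11.7 FPKM, from 269 to 705 reads. Every hippocampal library was above every cortex library, and the log2 difference was 2.77 ± 0.19 (SE, limma, adjusted p = 9.94e-07). A count model, limma-voom on the recovered reads, put it at 6.21 on the log2 scale, where the size rests on the few cortical reads. The gene lies on the plus strand of chromosome 19 of mm10, from 44493472 to 44514273.

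Wnt2b, another hem ligand, ran from 0.188 to 0.881 FPKM in cortex with a median of 0.704 FPKM, and from 3.49 to 8.84 FPKM in hippocampus with a median of 7.29 FPKM. The tissues did not overlap, and the log2 difference was 2.13 ± 0.21 (SE, limma, adjusted p = 1.5e-05). It lies on the minus strand of chromosome 3, from 104945272 to 104961921. Wnt5a, which acts largely outside beta-catenin signalling, was higher in hippocampus by 0.99, also with no overlap. Wnt9a was higher by 0.85, and its lowest hippocampal library, at 1.74 FPKM, lay just below the highest cortex library, at 1.81 FPKM.

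Wnt7a was the ligand that was lower in hippocampus. Together with Wnt7b it serves the growth of blood vessels into the brain. Its lowest, median and highest levels were 8.02, 9.89 and 12.6 FPKM in cortex and 6.30, 6.71 and 9.29 FPKM in hippocampus. The tissues overlapped, and the log2 difference was -0.38 ± 0.10 (SE, limma, adjusted p = 0.00947). The other 4 ligands tested, Wnt3, Wnt4, Wnt5b and Wnt7b, had log2 differences of -0.29 to -0.01 and did not pass. Summed over the 11 ligands listed in all 12 libraries, the level was 44.6 to 54.8 FPKM in cortex and 51.7 to 71.1 FPKM in hippocampus, and the tissues overlapped.

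All 3 R-spondins, the enhancers of the receptor response, were higher in hippocampus, by 1.38 to 1.95 on the log2 scale, and none overlapped between the tissues. Rspo1 had lowest, median and highest levels of 0.763, 0.867 and 1.29 FPKM in cortex and of 4.37, 6.42 and 8.05 FPKM in hippocampus. Its log2 difference was 1.95 ± 0.13 (SE, limma, adjusted p = 8.99e-07), and the gene lies on chromosome 4 from 124986430 to 125009099. Rspo3 ran from 2.39 to 3.20 FPKM in cortex with a median of 2.64 FPKM, and from 8.08 to 12.4 FPKM in hippocampus with a median of 8.72 FPKM. Its log2 difference was 1.50 ± 0.11 (SE, limma, adjusted p = 2.44e-06). The summed level of the R-spondins was 5.90 to 8.50 FPKM per cortex library and 20.8 to 31.4 FPKM per hippocampal library.

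Among the receptors all 11 members tested had a positive difference, 9 of 11 under median-of-ratios scaling or quantile normalization (Fzd2 and Fzd8 turned negative), and 7 passed. Without further scaling, 7942 of all 13158 genes tested had a positive difference. Fzd10, a Frizzled at a low level in cortex, ran there from 0.654 to 1.21 FPKM with a median of 0.972 FPKM, and from 3.57 to 7.10 FPKM in hippocampus with a median of 5.09 FPKM. Its log2 difference was 1.65 ± 0.14 (SE, limma, adjusted p = 4.13e-06). Fzd1 ran from 4.49 to 6.06 FPKM in cortex with a median of 4.96 FPKM, and from 13.1 to 19.3 FPKM in hippocampus with a median of 16.6 FPKM, a log2 difference of 1.50 ± 0.10 (SE, limma, adjusted p = 9.94e-07). Neither gene overlapped between the tissues. The other receptors that passed were Fzd9 at 0.83, the co-receptors Lrp5 at 0.82 and Lrp6 at 0.66, Fzd7 at 0.61 and Fzd3 at 0.53. Fzd3 had the weakest call, with lowest, median and highest levels of 4.06, 9.25 and 12.2 FPKM in cortex and 10.4, 12.7 and 14.8 FPKM in hippocampus (limma, adjusted p = 0.039). The receptors that did not pass were Fzd4, Fzd6, Fzd8 and Fzd2, at 0.02 to 0.49. The level summed over all 12 receptors and co-receptors was 33.4 to 50.2 FPKM per cortex library and 66.5 to 102 FPKM per hippocampal library, lowest in cortex SH replicate 3 and highest in hippocampal SH replicate 1.

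The secreted antagonists differed in both directions. Sfrp5, a soluble decoy for Wnt ligands, ran from 2.02 to 4.27 FPKM in cortex with a median of 2.40 FPKM, and from 0.265 to 1.15 FPKM in hippocampus with a median of 0.579 FPKM. Its log2 difference was -1.13 ± 0.16 (SE, limma, adjusted p = 0.000271), and the tissues did not overlap. Sfrp2, of the same family, had lowest, median and highest levels of 6.19, 6.80 and 7.55 FPKM in cortex and 3.44, 4.72 and 6.09 FPKM in hippocampus, also without overlap, a log2 difference of -0.47 ± 0.13 (SE, limma, adjusted p = 0.0126). Dkk3 was higher in hippocampus by 0.74, with levels of 22.8 to 28.7 FPKM in cortex and 34.1 to 61.0 FPKM in hippocampus, and Sfrp4 by 0.52. Sfrp1 had a mean of 22.5 FPKM in cortex and 22.2 FPKM in hippocampus and did not pass. Dkk2, whose mean was too low for the test, ran from 0.607 to 0.986 FPKM in cortex and from 0.185 to 0.487 FPKM in hippocampus without overlap, and passed as lower when the filter was dropped.

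Of the effectors, Axin2 had the largest difference and was higher in hippocampus. It is a brake on the pathway that beta-catenin itself switches on, and it is widely read as a sign of signalling. Its lowest, median and highest levels were 4.70, 5.05 and 7.01 FPKM in cortex and 8.57, 12.5 and 16.9 FPKM in hippocampus. The tissues did not overlap, and the log2 difference was 1.02 ± 0.12 (SE, limma, adjusted p = 5.1e-05). Tcf7l1, which mostly represses the pathway's targets, was higher by 0.42, and Axin1, the scaffold of the destruction complex, by 0.27. Ctnnb1 ran from 184 to 305 FPKM in cortex and from 306 to 344 FPKM in hippocampus without overlap, and did not pass, with a log2 difference of 0.24 ± 0.13 (SE, limma, adjusted p = 0.156). Its next lowest cortex library after SH replicate 3, at 184 FPKM, was SH replicate 2 at 289 FPKM. Apc and Tcf7l2, at 0.18 and -0.36, did not pass. Tcf7l2 was called lower under several other settings, such as quantile normalization (-0.56) and EE libraries only (-0.51), but not with SH libraries only (-0.21). Apc was also called lower in EE libraries only (-0.33). Tcf7l2 is also a marker of the thalamus, of which 4 other markers were tested and 2 were lower in hippocampus.

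**Figure D2:**
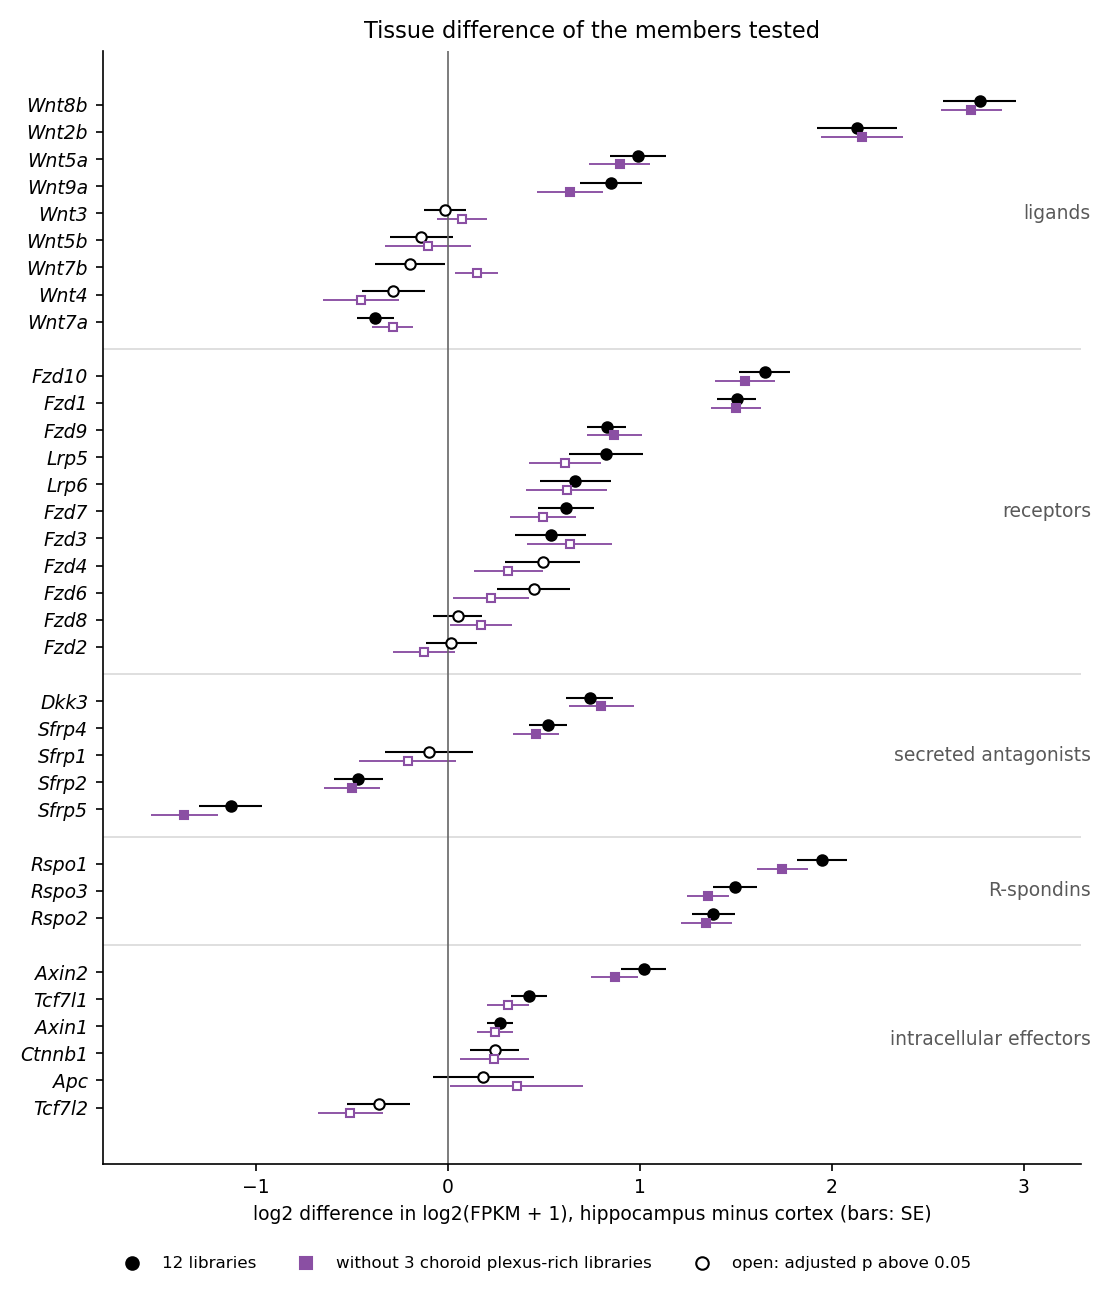
Log2 difference (hippocampus minus cortex, on the log2(FPKM + 1) scale, bars SE) of the 34 members tested, by role, in black over the 12 libraries of replicates 1 to 3 and in purple without the 3 hippocampal libraries rich in choroid plexus transcripts; open symbols did not pass. The 3 R-spondins, Wnt8b, Wnt2b, Fzd10 and Fzd1 lie between 1.38 and 2.77 over the 12 libraries and pass both ways, and Sfrp5 lies at -1.13.

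Scaling moved the balance of calls over all genes. Over the 13158 genes, 3233 were higher and 1428 lower without further scaling, while median-of-ratios scaling gave 2158 higher and 2232 lower of 13145, or 16.4% and 17.0%, with a median over all genes of -0.03 in place of 0.09. Of the members, 17 were then higher and 4 lower. Axin1 and Fzd3 lost their calls under that scaling and Tcf7l2 was called lower. The other 20 members kept theirs. The Fzd3 call was also lost when any 1 of 8 libraries was left out, namely cortex EE replicate 2 or 3, cortex SH replicate 2, hippocampal EE replicate 2 or 3, or any hippocampal SH replicate, with adjusted p-values of up to 0.0885 (limma). The other 21 calls passed in all 12 fits that left out 1 library.

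The 3 hippocampal libraries rich in choroid plexus transcripts differed from the others in several members. Without them 13 members were higher and 2 lower, and of all genes 10.4% were higher and 5.99% lower, with 9 libraries in place of 12. Axin1, Fzd3, Fzd7, Lrp5, Lrp6, Tcf7l1 and Wnt7a no longer passed, at adjusted p-values of 0.0545 to 0.104 (limma). The log2 differences of Axin1, Lrp6 and Fzd3 were then 0.25, 0.62 and 0.63, against 0.27, 0.66 and 0.53 with all 12 libraries. Those of Lrp5, Fzd7, Tcf7l1 and Wnt7a were 0.61, 0.49, 0.31 and -0.29, against 0.82, 0.61, 0.42 and -0.38. Wnt8b, Wnt2b, Rspo1, Fzd10, Fzd1 and Rspo3 remained at 2.73, 2.16, 1.74, 1.55, 1.50 and 1.36. Sfrp5 was at -1.37, and Axin2 at 0.87. When cortex SH replicate 3 was left out as well, 17 members were higher and 3 lower, as were 2466 and 1560 of 12990 genes. Of the 22 calls only those of Axin1, Fzd7 and Wnt7a were then missing, and Tcf7l2 was newly called lower, at -0.62. Wnt7b was 12.6, 19.2 and 23.8 FPKM in the 3 choroid plexus-rich libraries and 26.9 to 34.0 FPKM in the other hippocampal libraries. Its log2 difference between tissues was -0.20 with them and 0.15 without them, and it passed in neither. The part of choroid plexus in the levels of these members was not tested.

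**Figure D3:**
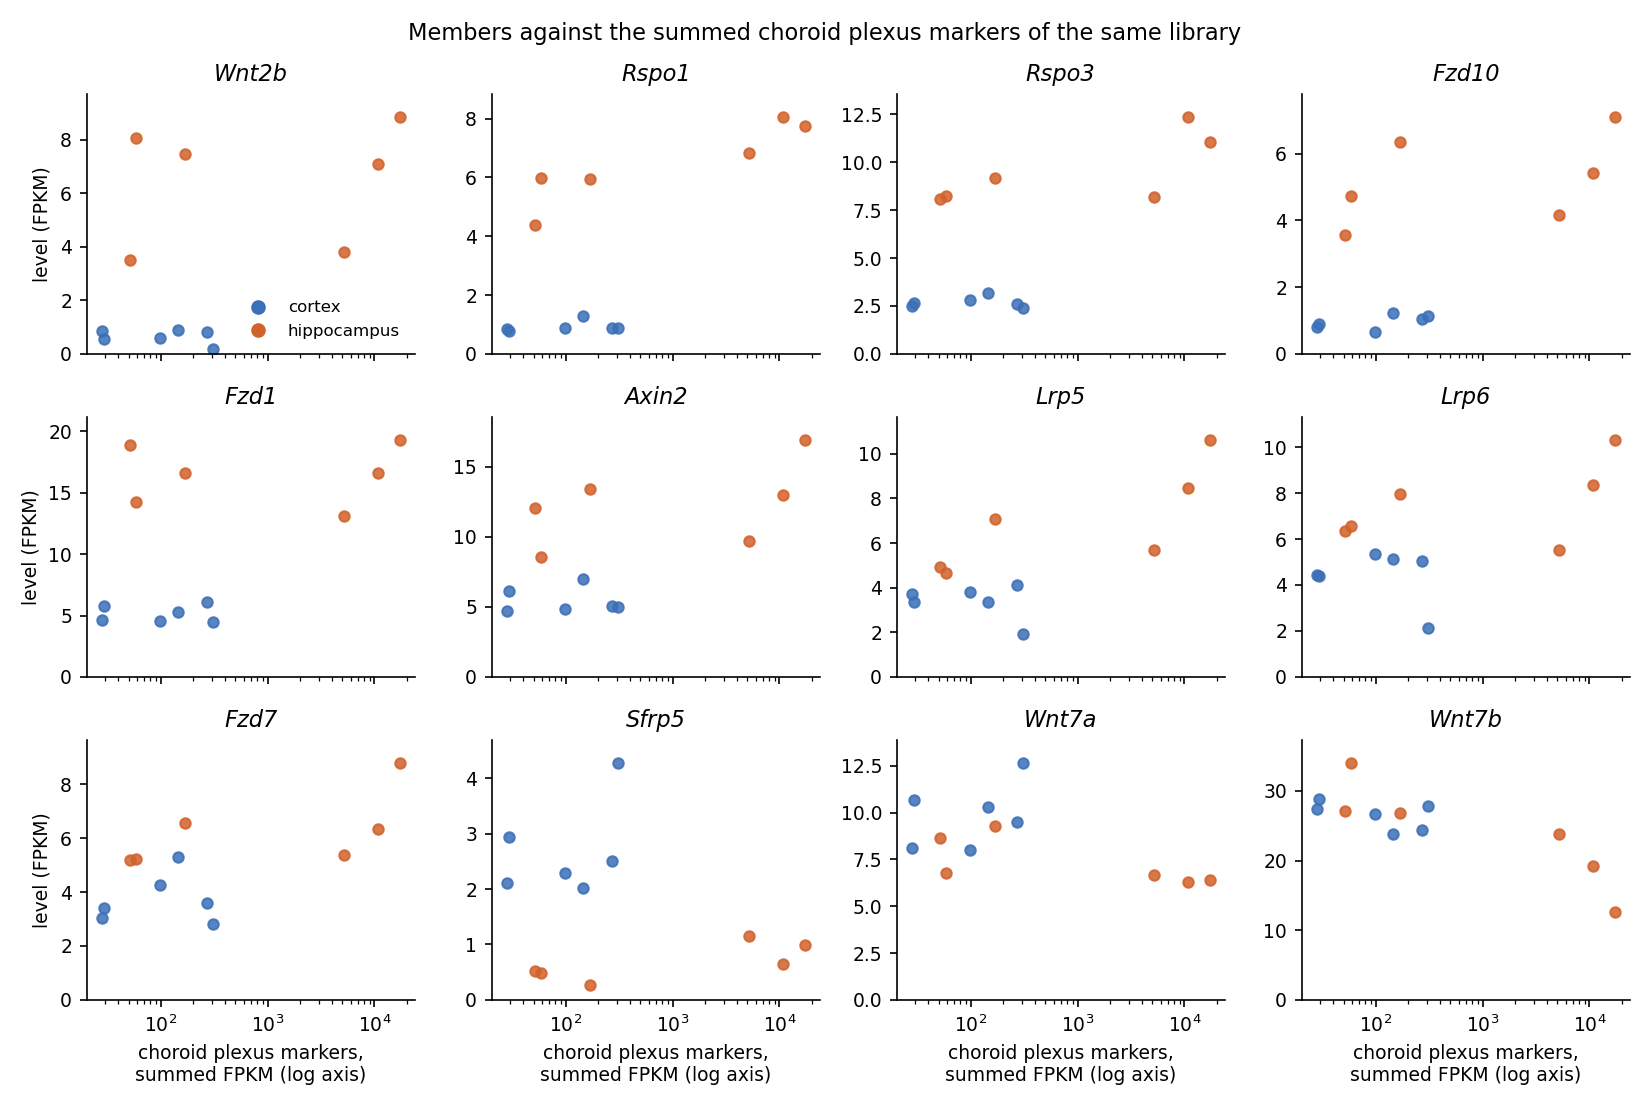
Level in FPKM of 12 members in each library of replicates 1 to 3 (cortex blue, hippocampus orange) against the summed FPKM of the choroid plexus markers in that library (log axis). Wnt2b, Rspo1, Rspo3, Fzd10 and Fzd1 are above every cortex library in hippocampal libraries with low and with high sums, whereas Wnt7b is lowest, at 12.6 FPKM, in the library with the highest sum, 17300 FPKM.

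Of 62 other genes of the pathway, 61 were listed in at least 1 library and 56 were tested between tissues, of which 25 were higher and 5 lower in hippocampus. Over all genes tested, 24.6% were higher and 10.9% lower. The median log2 difference was 0.24, against 0.09 over all genes. Lef1, the transcription factor that carries beta-catenin to its targets, was higher by 1.29, with 1.28 ± 0.203 FPKM in cortex and 4.71 ± 1.41 FPKM in hippocampus (SD, n = 6 each). Tnfrsf19 and Sp5, known targets of the pathway, were higher by 1.26 and 0.92. Celsr1, of planar cell polarity, was higher by 1.81 and Dvl2, which relays the signal from Frizzled, by 0.59. Draxin and Lrp4, which can both hold the pathway back outside the cell, were higher by 1.23 and 1.04. Dact3, an inhibitor that binds Dvl proteins, was lower by a log2 difference of -0.71. The adjusted p-values of these 8 genes were 7.69e-06 to 0.000726 (limma).

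The second comparison asked whether the prenatal environment changed these genes in cortex. No member passed at an adjusted p of 0.05 or less among 29 tested, and 0.00798% of 12539 genes did, all lower in EE. At an unadjusted p under 0.05, no member was higher and 3 were lower in EE, the ligands Wnt7a and Wnt5b and the feedback gene Axin2, against 5.49% of all genes lower and 1.95% higher. All 7 ligands tested had negative differences, from -0.38 to -0.10, while 54.0% of all genes were negative, and both R-spondins tested had positive differences, 0.11 and 0.13. Of 10 receptors 7 were negative (6 under either scaling), of 4 antagonists 1 and of 6 effectors 2. The median over the members was -0.03 and over all genes -0.02.

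Wnt7a was 8.02, 9.48, 8.10, 6.81 and 8.53 FPKM in the 5 EE libraries of cortex. It was 10.3, 10.7, 12.6, 10.6 and 10.4 FPKM in the 5 SH libraries. Every EE library was below every SH library. Of the 29 members tested here it was the only one without overlap, while 2.02% of all genes were lower in EE without overlap. The log2 difference was -0.38 ± 0.10 (SE, limma, adjusted p = 0.354), at -0.35 within replicates 1 to 3 and -0.41 within replicates 4 and 5. An exact two-sided permutation test within the sets gave p = 0.0167, the smallest that its 120 arrangements allow. This is 1 of 21 such tests, on 7 members in 3 comparisons. The 7 members were taken for their small p in the same libraries and these p-values are not adjusted, so they describe the arrangement of the libraries and are no separate evidence.

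Axin2 was 4.87, 5.09, 4.70, 4.75 and 5.68 FPKM in the EE libraries and 7.01, 6.10, 5.01, 8.70 and 7.96 FPKM in the SH libraries of cortex. All 5 EE libraries were below the SH mean of their set, and the groups overlapped through SH replicate 3. The log2 difference was -0.38 ± 0.11 (SE, limma, adjusted p = 0.425; exact permutation p = 0.0333). Wnt5b, a ligand close to Wnt5a, was 0.972, 0.858, 1.342, 0.977 and 1.005 FPKM in EE and 1.298, 1.434, 2.246, 1.997 and 1.237 FPKM in SH. The groups overlapped, with a log2 difference of -0.37 ± 0.13 (SE, limma, adjusted p = 0.508; exact permutation p = 0.0333). Of 12 meningeal markers 11 and of 10 striatal markers all 10 were also lower in EE cortex by the sign of the difference, with medians of -0.21 and -0.22, and none passed. The striatal markers summed to 103 to 148 FPKM in EE and 124 to 166 FPKM in SH, and the meningeal markers to 551 to 1171 and 674 to 2542 FPKM. Their part in the levels of Wnt7a, Wnt5b and Axin2 was not tested.

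The third comparison asked the same of hippocampus. No member passed among 34 tested, as did 0.0% of 13344 genes, and at an unadjusted p under 0.05 no member was higher and 2 were lower in EE, against 3.07% of all genes lower. By sign, 10 of 11 receptors were lower in EE, from -0.30 to 0.02, and all 3 R-spondins higher, from 0.01 to 0.20, while 5 of 10 ligands were lower, and of all genes 52.8% were. These counts of receptors, R-spondins and ligands were the same under both scalings. They depended on single libraries: 7 of 11 receptors were lower without SH replicate 1 and 11 of 11 without SH replicate 2, and 2 of 3 R-spondins were lower without SH replicate 2. With 3 libraries against 3, the smallest exact p is 0.1. Apc, the scaffold that holds beta-catenin for destruction, was 36.0, 39.6 and 40.9 FPKM in EE and 43.8, 47.6 and 47.9 FPKM in SH. Its groups did not overlap, as for 7.32% of all genes in that direction and 2.59% in the other, and the log2 difference was -0.25 ± 0.09 (SE, limma, adjusted p = 0.9996; exact permutation p = 0.1).

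Fzd1 was 13.1, 16.7 and 14.2 FPKM in EE and 19.3, 18.9 and 16.6 FPKM in SH hippocampus. The groups touched, EE replicate 2 and SH replicate 3 being nearly equal, and the log2 difference was -0.30 ± 0.12 (SE, limma, unadjusted p = 0.0359). Axin2 was 9.69, 13.0 and 8.57 FPKM in EE and 16.9, 12.1 and 13.4 FPKM in SH. All 3 EE libraries were below the SH mean, and the log2 difference was -0.41 ± 0.18 (SE, limma, unadjusted p = 0.0541). The R-spondins, Wnt8b and Wnt2b had EE differences of -0.20 to 0.20 in hippocampus and did not pass. Choroid plexus markers were higher in EE hippocampus in 11 of 11 cases by sign, with a median log2 difference of 0.91, and none passed. Their part in these values was not tested.

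**Figure D4:**
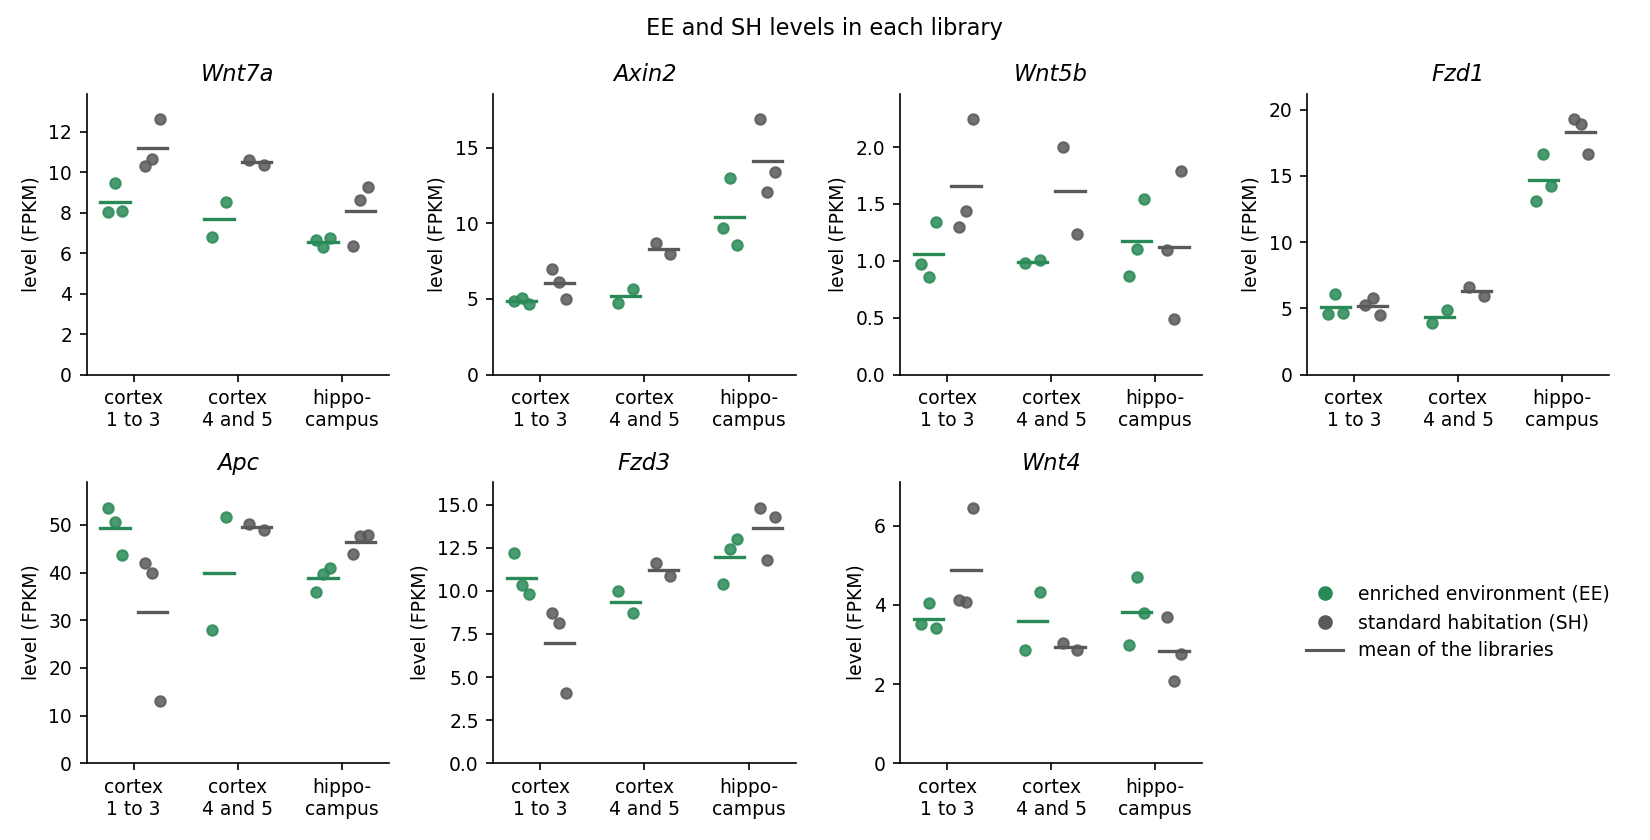
Level in FPKM of 7 members in each EE library (green) and SH library (grey) of cortex replicates 1 to 3, cortex replicates 4 and 5 and hippocampus, with bars at the means. Wnt7a and Axin2 lie below the SH mean of their own set in 8 of 8 EE libraries, and Apc has 1 low SH library in cortex at 13.1 FPKM.

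Across both tissues Axin2 and Wnt7a were below the SH mean of their own set in 8 of 8 EE libraries, and Fzd1 and Wnt5b in 7 of 8. The hippocampal mean of Wnt5b was nevertheless slightly higher in EE, at 1.171 against 1.125 FPKM in SH. In cortex replicates 1 to 3 the EE and SH means of Fzd1 were nearly equal, at 5.09 and 5.19 FPKM. Of the 30 members tested over all 16 libraries, 2 were below in 8 of 8 and 8 in at least 7 of 8, while of all 12672 genes 4.52% and 11.2% were. A single EE effect common to all 16 libraries, fitted after these values were seen with a term for the set, called no member among 30 tested, and 0.331% of 12672 genes. At an unadjusted p under 0.05, 3 members were lower in EE, against 7.41% of all genes lower and 9.4% in either direction. They were Wnt7a at -0.33 ± 0.08 (SE, limma, adjusted p = 0.095), Axin2 at -0.39 ± 0.10 (SE, limma, adjusted p = 0.0987) and Fzd1 at -0.24 ± 0.09 (SE, limma, adjusted p = 0.358). A single library decided on which side of the threshold each of Wnt7a and Axin2 fell. Wnt7a passed without hippocampal SH replicate 1 (limma, adjusted p = 0.0298, range over all settings 0.0298 to 0.274), and Axin2 passed without cortex SH replicate 3 (limma, adjusted p = 0.0234, range 0.0148 to 0.299).

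No member passed a test of whether the EE effect differed between the tissues, and 0.0% of 13158 genes did. Without adjustment 3 members had a p under 0.05, 2 of them lower, against 7.52% of all genes in either direction and 2.14% lower. They were Fzd3 at -0.79 ± 0.30, Apc at -1.04 ± 0.45 and Wnt4, a ligand with roles in and outside beta-catenin signalling, at 0.65 ± 0.28 (SE, limma, adjusted p = 0.495 for each), in hippocampus relative to cortex. In cortex replicates 1 to 3, Fzd3 was 12.2, 10.3 and 9.80 FPKM in EE and 8.71, 8.12 and 4.06 FPKM in SH. Apc was 53.6, 50.7 and 43.6 FPKM in EE and 42.0, 39.8 and 13.1 FPKM in SH there. Wnt4 was 3.51, 4.04 and 3.40 FPKM in EE and 4.12, 4.08 and 6.46 FPKM in SH. For each of the 3 genes cortex SH replicate 3 held the extreme value, and without it the differences were -0.50, -0.51 and 0.47 for Fzd3, Apc and Wnt4. In cortex replicates 4 and 5 the EE and SH means of Fzd3 were 9.37 and 11.2 FPKM. Those of Apc were 39.8 and 49.5 FPKM and those of Wnt4 3.60 and 2.94 FPKM. For each of these genes this is the opposite order to replicates 1 to 3.

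Among the 62 other pathway genes, none passed in cortex (54 tested) or in hippocampus (57 tested). In limma-voom, run on the recovered reads, no member passed in an EE comparison either. The pathway genes with the smallest p in cortex were Myc at -0.32, Dvl3 at 0.35 and Dvl2 at -0.18, and in hippocampus Amer1 at -0.27, Tnks at -0.32 and Bcl9 at -0.25 (limma, adjusted p = 0.518 to 0.9996).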

How the data were processed

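Per the labels' protocols, Trizol was used for the RNA and a NEBNext Ultra kit for the libraries. The values analysed are FPKM as deposited by the authors, from 6 cortex and 6 hippocampus libraries in one form and 4 further cortex libraries in another. Per the submitters' processing notes, which give no role or order, HISAT2 2.0.4 and StringTie 1.3.4d were among the tools, beside cutadapt 1.9, DESeq2 and edgeR, with the build mm10. The annotation used and the rule by which genes were listed are not given in the sources used here. A symbol that occurred more than once (1 case) was left out, and a gene not listed for a library was missing there.

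Linear models were fitted to log2(FPKM + 1) by limma 3.58.1 (R 4.3.3), whose eBayes step used a trend on the mean. Genes had to be listed in every library of the fit with a mean of at least 1 FPKM, and p-values were adjusted over all of them by the Benjamini-Hochberg method with a threshold of 0.05. The tissue comparison used the 12 libraries of replicates 1 to 3 and allowed for treatment. EE was compared with SH in cortex with a term for the set of files (replicates 1 to 3 or 4 and 5), and in hippocampus alone. The difference between these effects was tested as an interaction over replicates 1 to 3. The fit of EE over all 16 libraries, the fits without choroid plexus-rich libraries and limma-voom were added after the data were seen. Other alternatives were the pseudocount, the filter, 2 scalings, a replicate block, treatments taken singly and each library left out.

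Whole reads per gene were recovered from the steps of the FPKM values within each set, with a tolerance of 0.003 reads. They came out whole for 99.956% to 99.97% of the genes, with a median of 367 to 643 reads per gene, and are known up to a common factor. The fits and the recovery were tested on simulated data. Exact permutation tests were two-sided.

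The members and the gene lists were chosen with earlier results of these data known. Of the members, the text gives in full the 6 higher and up to 6 lower in hippocampus with the largest differences, the 3 with the smallest p in each EE comparison and the member with the highest mean in each role. Members named beyond these, and Wnt3a, Wnt6 and Wnt16, were chosen after their values were seen. Up to 8 other pathway genes between tissues, and 3 per EE comparison, were named by the smallest p. Gene positions come from GENCODE M21 on mm10.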

Additional observations from a re-analysis of the deposited data

Results flagged for a closer look

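In cortex SH replicate 3 Apc was at 13.1 FPKM, far below the other 4 SH libraries of cortex, which ran from 39.8 to 50.1 FPKM. In the same library Wnt7a was at 12.6 FPKM, above the other SH libraries of cortex at 10.3 to 10.7 FPKM. In cortex EE replicate 5 Sfrp2 was at 5.32 FPKM, below the other EE libraries of cortex at 6.79 to 6.82 FPKM. Each stands apart from its group by the gap between the extreme library and its nearest neighbour relative to the whole range. This was examined in 46 groups of cortex libraries, of which 3 were flagged. Chance would give about 1 in 20, and the number flagged is close to that share. Cortex SH replicate 3 is also the library with the highest summed FPKM, 511438. Without it the EE difference of Wnt7a in cortex was -0.34 on the log2 scale, against -0.38 with it.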

How the results depend on the processing

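Between the tissues, 22 members passed, 19 higher and 3 lower in hippocampus. With a mean of at least 5 FPKM, 12 of 17 members passed (10 higher), while of 8974 genes 1758 were higher and 986 lower. With SH libraries only 10 members passed, 9 higher and 1 lower, while of 13179 genes 300 were then higher and 218 lower. Quantile normalization and EE libraries only each gave 5 lower members, while 15.7% and 12.6% of all genes were lower, against 10.9%. Leaving out 1 library gave 21 to 23 member calls. Over all genes, these fits gave 2514 higher and 1148 lower without hippocampal EE replicate 2, the fewest. They gave 3759 higher and 2001 lower without cortex SH replicate 3, the most. Axin2, Fzd1, Fzd10, Rspo1, Rspo2, Rspo3, Sfrp5, Wnt2b, Wnt5a and Wnt8b passed under every setting run that tested them. No setting called a member in cortex, in hippocampus or in the interaction. Over all genes, cortex replicates 4 and 5 alone gave 210 higher and 225 lower in EE, and hippocampus without the choroid plexus-rich libraries 7 and 1. The EE effect over all 16 libraries called 0 to 1 members with 1 library left out and 2 without the choroid plexus-rich libraries and cortex SH replicate 3. Without cortex SH replicate 3 alone it called 7 genes higher and 221 lower, against 42 genes in all. For the 22 tissue calls, and for the 3 members that each EE comparison names by p, 745 values by setting kept call and direction, 37 lost the call, 4 gained one and 0 changed sign. Among members not called signs did turn, with 32 of 34 the same under median-of-ratios scaling and 30 of 34 in EE libraries only. The cause of these changes was not tested. The labels do not say what a replicate number shares. Same-numbered EE and SH libraries of cortex correlated by 0.09 to 0.405, each best with its own number. The values were centred within each set, so replicates 4 and 5 could only match or fail together (0.136 for both). Those of replicates 1 to 3 were also tied to each other by the centring. The matches are therefore not independent and are at most a weak hint of pairing. In hippocampus the correlations were -0.557 to 0.444 and between tissues -0.033 to 0.283, so no pairing was assumed. With a replicate block 22 members passed between the tissues (Fzd4 in place of Fzd3), while of 13158 genes 3023 were higher and 1334 lower. In each EE comparison 0 members passed with the block, with 5 genes in place of 42 over all 16 libraries. The size of the Wnt8b difference rests on 0 to 14 reads per cortex library.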
